A study of Mus musculus with 8 samples.

Results

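Periostin (Postn), its relative Tgfbi, the tenascins Tnc, Tnn and Tnxb, the SPARC pair Sparc and Sparcl1, fibronectin (Fn1), versican (Vcan) and Ecm1 are matrix genes. Several of them belong to the provisional matrix that is laid down in healing and remodelling tissue. These 10 genes were taken by name from the 20681 rows of a table of gene expression in mouse knee joints. All 10 were found, once each, and all 10 passed the filter for low values that left 14949 genes for testing. The genes were chosen with the difference between the 2 groups of this study already known, so their values in that comparison, and the counts of members that pass its threshold, are given as a description and support nothing.

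Poly-A RNA was sequenced from 8 knee joint samples, with 4 in a control group and 4 in a group labelled knockout. The mice are described as Acan-Cre;Loxl2 fl/fl, in which a Cre recombinase under the aggrecan gene removes Loxl2, the gene of a collagen-crosslinking lysyl oxidase. That driver is a gene of cartilage cells, so other cells of the joint can keep the allele. The controls are called vehicle-treated and their library names carry LOXL2wt, while the series text gives the floxed genotype for all samples. What the knockout group received in place of vehicle, the age and sex of the animals and the time of sampling are not given in the sources used here. All 8 library names carry DMM, a usual abbreviation of medial meniscus destabilisation, which is a surgical injury of the joint. The labels do not say whether each sample came from a separate mouse, so the standard errors and p-values measure the spread between these samples, which may be partly technical.

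Values are normalised read counts, the reads of a gene divided by the library's size factor, and differences are log2 differences of (normalised count + 1), libraries labelled knockout minus control, with the standard error of a limma fit across all genes tested. A gene is called when its limma p-value, adjusted over all genes by the Benjamini-Hochberg method, is under 0.05. The log2 difference compares means of log2 values, and therefore differs from the log2 of the ratio of the mean counts, which is given beside it. The libraries held 13991000 to 17411617 reads. The targeted gene itself went against the label. Controls 1 to 4 had 282, 349, 1135 and 311 normalised reads of Loxl2, against 893, 1468, 960.3 and 1518 under the knockout label, and the groups overlapped (means 519 ± 411 and 1210 ± 329, SD, n = 4). The floxed exons are not named in the sources used here, and a count over the whole gene does not show whether a part of it was deleted. Control replicate 3 stood apart from the other controls in Loxl2 and in several of the genes below, whose values are therefore also given without it. For Loxl2 the log2 difference was 1.44, with 1.91 without that library and 1.24 without control replicate 1. Markers of cartilage, synovial lining, tendon and bone were present, with 1 of 8 chondrocyte markers at 0 in a library, but chondrocyte markers held only 0.0219 to 0.0971% of the summed values of a library, and 12 skeletal muscle genes held 13.5 to 14.2% in the controls and 7.90 to 10.99% in the libraries labelled knockout.

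Matricellular proteins are secreted into the matrix and bind collagen, other matrix proteins and cell-surface integrins, but most of them act as adaptors and signals more than as structural fibres. Periostin and TGFBI are built of fasciclin domains. The tenascins are large multi-armed glycoproteins, of which tenascin-C appears in injury and development, tenascin-N (tenascin-W) at bone-forming and stromal sites, and tenascin-X in the loose connective tissue of adults. Many of these genes are known to be induced by TGF-beta in fibroblasts. In joints, fibroblasts of synovium, periosteum, ligament and tendon are among the cells that make them.

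The upstream sequences of 3 genes are shown first, because they stand at the ends of the range described below. Postn and Tnn had the largest differences between the groups and Tnxb one of the smallest. Each is the 250 bases before an annotated start of transcription, 5′ to 3′ on the gene's own strand, from the RefSeq promoter table of GRCm38.p6. They lie at chr3:54360857-54361106 on the plus strand for Postn, chr1:160153576-160153825 on the minus strand for Tnn and chr17:34670285-34670534 on the plus strand for Tnxb. Capitals mark matches to the TATA box TATAAA, the AP-1 motif TGANTCA, the TEAD motif GGAATG and the SMAD motif CAGAC, searched on both strands.
Postn: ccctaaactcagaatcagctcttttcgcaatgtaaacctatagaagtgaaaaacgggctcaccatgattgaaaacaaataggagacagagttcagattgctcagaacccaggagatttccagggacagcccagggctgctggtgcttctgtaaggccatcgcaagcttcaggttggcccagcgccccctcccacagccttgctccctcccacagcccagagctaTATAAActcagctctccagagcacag
Tnn: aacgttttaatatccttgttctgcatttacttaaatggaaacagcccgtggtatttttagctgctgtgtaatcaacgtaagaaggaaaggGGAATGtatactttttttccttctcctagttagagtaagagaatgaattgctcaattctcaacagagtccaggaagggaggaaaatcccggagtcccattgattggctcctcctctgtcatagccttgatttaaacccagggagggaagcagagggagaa
Tnxb: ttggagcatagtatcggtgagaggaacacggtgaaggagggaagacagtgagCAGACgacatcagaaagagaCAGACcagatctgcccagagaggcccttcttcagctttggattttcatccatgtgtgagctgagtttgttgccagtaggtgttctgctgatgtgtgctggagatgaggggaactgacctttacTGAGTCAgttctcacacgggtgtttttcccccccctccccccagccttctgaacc
The Postn window shown has TATAAA at positions -26 to -21, counted back from the start site, and no CAGAC. A second Postn start site has its window at chr3:54359017-54359266, with CAGAC from -191 to -187 and no TATAAA. Tnn has no TATAAA in this window but has GGAATG from -160 to -155, and Tnxb has TGAGTCA from -55 to -49 and CAGAC from -198 to -194 and from -178 to -174. Of the 10 members, 8 had an entry in the table, with 10 start sites in all. Among all 32851 windows of the same length, TATAAA was found in 12.4%, TGANTCA in 6.75%, GGAATG in 12.6% and CAGAC in 42.2%, against 4, 2, 1 and 6 of the 10 member windows. The 2 windows of Tnc overlap and hold the same TATAAA and 2 of the same E-boxes, so the 4 windows with TATAAA are 3 sites in 3 genes. E-boxes (CANNTG, which can overlap the other motifs) were found in 66.2% of all windows and 6 of the 10, and the CArG box of serum response factor in 1.47% and 0 of the 10. A match is a description of the letters and not a site of binding.

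Across the 10 genes the log2 difference was above 0 for every member, from 0.25 for Sparcl1 to 3.42 for Postn, with a median of 1.17 beside a median of 0.00 over all genes tested. The fit called 5 of them, Postn, Tnn, Tnc, Sparc and Ecm1, all higher in the libraries labelled knockout, where 23.2% of all genes tested were called in either direction and 11.6% were called higher. The groups did not overlap for 4 of them, the same genes without Tnc, where 11.7% of all genes had separate groups with the libraries labelled knockout above and 25.1% had separate groups in either direction. Since the members were chosen on this comparison, nothing is read from these counts. Tgfbi, Vcan, Fn1, Tnxb and Sparcl1 were not called. The count was 7 without control replicate 3, with Tgfbi and Vcan added, and 6 without knockout replicate 3, with Vcan added. It was 4, with Tnc lost, under edgeR and DESeq2, on leaving out either of controls 2 and 4, and on leaving out any library labelled knockout except replicate 3. When each library was instead scaled without muscle, red cell and neutrophil markers and the 50 highest genes, the median of all genes moved to 0.15 and 77.8% of 3496 called genes were higher, against 50.04% of 3461. The members' differences then ran from 0.40 to 3.57. They stayed above 0 under quantile normalisation too, from 0.47 to 3.58. With the score of the muscle markers as a covariate, the differences of 5 of the 10 were below 0, and limma called 0 members and 0 of all genes, while 637 genes had an unadjusted p under 0.05. The groups themselves accounted for 84.6% of the variance in the muscle score.

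**Figure D1:**
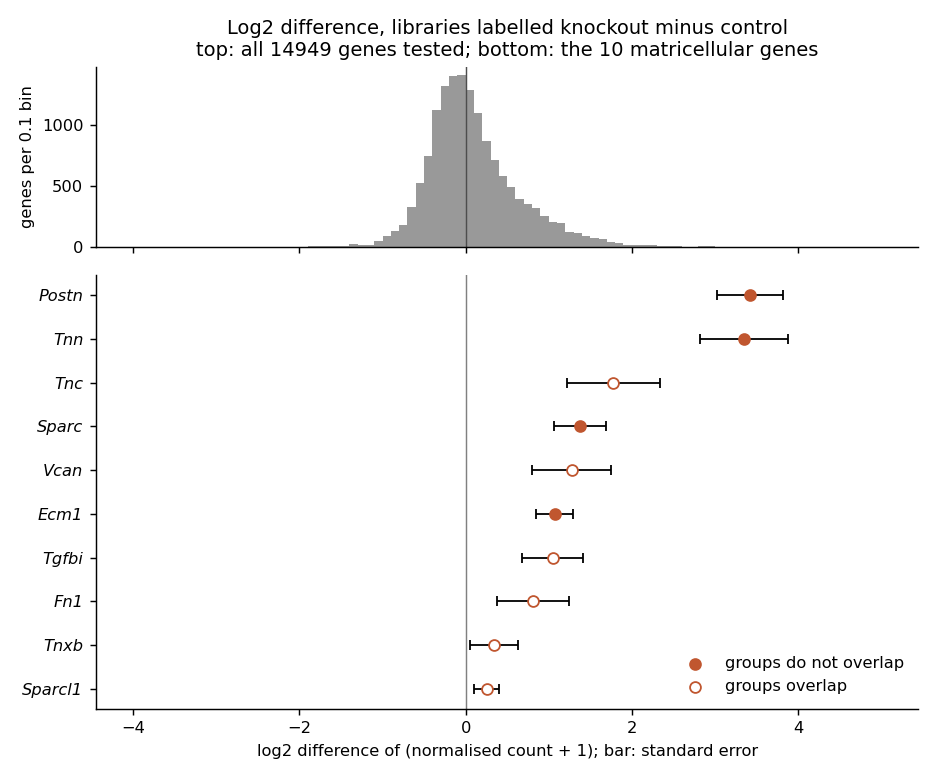
Top, log2 differences (libraries labelled knockout minus control) of all 14949 genes tested, as genes per bin. Bottom, the 10 matricellular genes with their standard errors, filled where the groups do not overlap. Postn and Tnn lie at 3.42 and 3.35, Sparcl1 and Tnxb at 0.25 and 0.34.

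Postn encodes periostin, a fasciclin-domain protein that binds collagen and helps activate lysyl oxidase. Its place in mm10 is chromosome 3, 54361109 to 54391037, plus strand. The controls, in order of replicate, had 894, 423, 1699 and 390.0 normalised reads, against 8133, 6973, 7335 and 8022 in the libraries labelled knockout. The groups were far apart, and the libraries labelled knockout were close to each other while the controls were not. The means were 852 ± 610.2 (SD, n = 4) and 7616 ± 555, with a ratio of 8.94 (log2 difference 3.42, SE 0.40), and the coefficient of variation was 71.7% in the controls and 7.29% in the other group. Without control replicate 3, its highest control, the log2 difference was 3.84. Over all 18 alternatives it stayed between 3.14 and 3.84, and 99.9% of all genes tested had a smaller difference.

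Tgfbi (chromosome 13, 56609523 to 56639562, plus strand) encodes the closest relative of periostin, a TGF-beta-induced adhesion protein. Its counts were 673, 831, 2264 and 1003 in the controls and 1443, 3106, 1740.0 and 2961 in the libraries labelled knockout. The third control exceeded knockout replicates 1 and 3, so the groups overlapped. The means were 1193 ± 727 and 2313 ± 843, with a ratio of 1.94. The log2 difference was 1.05 (SE 0.37) and became 1.41 without control replicate 3. Without control replicate 1 it was 0.83, the lowest of the fits that leave out a library. Both relatives had differences above 0, that of Postn the larger. The log2 level of Postn minus that of Tgfbi was between -1.36 and 0.41 in the controls. It was between 1.17 and 2.49 in the libraries labelled knockout, with no overlap. The members were chosen on this comparison, so such a ratio is a description, and no share over other gene pairs was computed.

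**Figure D2:**
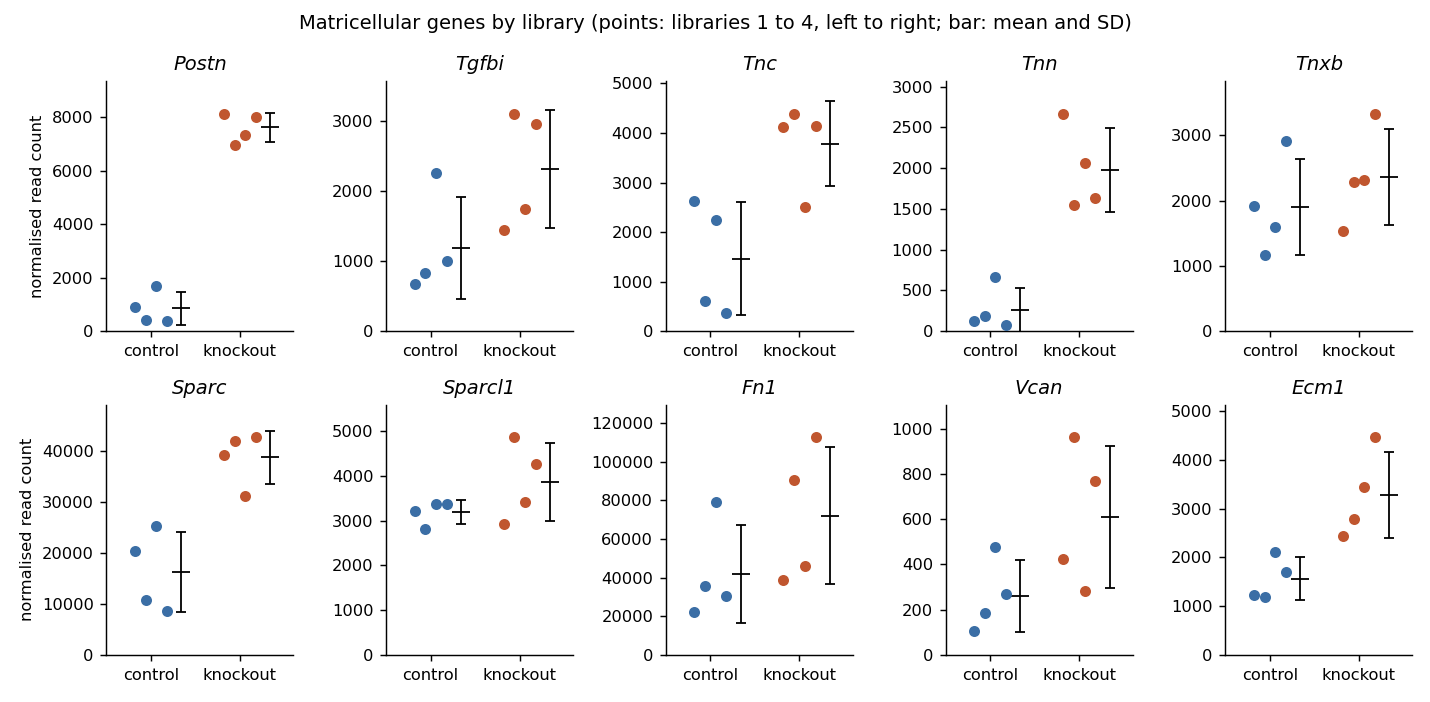
Normalised read counts of the 10 genes, 1 point per library, on linear axes that start at 0, with the mean and SD of the 4 libraries of each group (knockout as labelled). Postn, Tnn, Sparc and Ecm1 have separate groups, while Tnc, Tgfbi, Fn1, Vcan, Tnxb and Sparcl1 overlap.

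The 3 tenascins differed from each other. Tnn (chromosome 1, 160085029 to 160153580, minus strand), which encodes tenascin-N, had 124, 185, 665 and 82.2 normalised reads in the controls and 2668, 1545, 2058 and 1634 in the libraries labelled knockout. The lowest library labelled knockout was well above the highest control, which again was replicate 3. The means were 264 ± 271 and 1976 ± 513, with a ratio of 7.48 and a log2 difference of 3.35 (SE 0.53) that became 3.95 without control replicate 3. The control with the fewest reads of Tnn held 75, a counting error of 11.5%, which is small beside the 8.10-fold spread among the controls.

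Tnc (chromosome 4, 63959785 to 64047015, minus strand) encodes tenascin-C, which is produced at sites of injury and mechanical load. Its counts were 2624, 612, 2254 and 372 in the controls and 4113, 4391, 2507 and 4141 in the libraries labelled knockout. The controls fell apart into replicates 1 and 3 with high counts and replicates 2 and 4 with low ones, and control replicate 1 lay above knockout replicate 3, the lowest of its group. The means of 1465 ± 1138 and 3788 ± 863 had a ratio of 2.58 (log2 difference 1.78, SE 0.56). The log2 difference was 1.37 with edgeR and 1.38 with DESeq2, and ran from 1.27 without control replicate 4 to 2.21 without control replicate 1.

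Tnxb (chromosome 17, 34670535 to 34719815, plus strand), the gene of tenascin-X, had 1921, 1169, 1602 and 2909 normalised reads in the controls and 1537, 2279, 2321 and 3332 in the libraries labelled knockout. The ranges lay almost on top of each other, with means of 1900.3 ± 739.9 and 2367 ± 737 and a ratio of 1.25 (log2 difference 0.34, SE 0.28). That log2 difference fell to 0.14 without control replicate 2 and 0.16 without knockout replicate 4, and was 0.57 without control replicate 4. Within each library, the log2 level of Tnn minus that of Tnxb ran from -5.13 to -1.27 in the controls and from -1.03 to 0.80 in the libraries labelled knockout. The log2 level of Tnc minus that of Tnxb overlapped between the groups. That of Tnn minus Tnc did not, at -4.39 to -1.72 in the controls and -1.51 to -0.28 in the libraries labelled knockout. These ratios are a description only.

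Sparc and Sparcl1 encode a pair of related collagen- and calcium-binding glycoproteins, SPARC (osteonectin), which is abundant in bone and in cells that secrete collagen, and SPARC-like 1 (hevin), which is known from vessels and nerve tissue. Sparc (chromosome 11, 55394500 to 55423183, minus strand) had 20453, 10865, 25279 and 8548 normalised reads in the controls and 39303, 41916, 31239 and 42724 in the libraries labelled knockout. Every library labelled knockout was above every control. The means were 16286 ± 7906 and 38796 ± 5245, with a ratio of 2.38 (log2 difference 1.38, SE 0.31). Without control replicate 3, its highest control, the log2 difference was 1.64, and without control replicate 4, its lowest, it was 1.12.

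Sparcl1 (chromosome 5, 104079111 to 104113733, minus strand) had 3224, 2812, 3369 and 3372 in the controls and 2919, 4864, 3417 and 4278 in the libraries labelled knockout. It was the steadiest member among the controls, with a coefficient of variation of 8.26%, and knockout replicate 1 fell within the range of the controls. Its means of 3194 ± 264 and 3869 ± 869 had a ratio of 1.21 (log2 difference 0.25, SE 0.15). The log2 level of Sparc minus that of Sparcl1 was 1.34 to 2.91 in the controls. It was 3.11 to 3.75 in the libraries labelled knockout, with no overlap. This too is a description of genes chosen on this comparison, with no share over other gene pairs computed.

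Fn1 and Vcan form the early provisional matrix, Fn1 as the fibrils on which collagen is laid down and Vcan as a large hyaluronan-binding proteoglycan. Fn1 (chromosome 1, 71585520 to 71653200, minus strand) had 22040.3, 35769.8, 79292 and 30729 normalised reads in the controls and 38699.5, 90509.9, 46187 and 112638 in the libraries labelled knockout. Control replicate 3 exceeded knockout replicates 1 and 3, and the libraries labelled knockout fell into a lower and a higher pair. The means were 41958 ± 25527 and 72009 ± 35446, with a ratio of 1.72. The log2 difference was 0.81 (SE 0.44), and among the fits that leave out a library it ranged from 0.55 without knockout replicate 4 to 1.18 without control replicate 3.

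Vcan (chromosome 13, 89655312 to 89742509, minus strand) had 107, 186, 478 and 268 in the controls and 425, 962, 281 and 771 in the libraries labelled knockout. It had the pattern of Fn1 at a far lower count, with control replicate 3 above knockout replicates 1 and 3. The means of 259.7 ± 159.5 and 609.7 ± 312 had a ratio of 2.35 (log2 difference 1.27, SE 0.48). The log2 difference was 1.64 without control replicate 3 and 1.59 without knockout replicate 3.

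Ecm1 (chromosome 3, 95734147 to 95739569, minus strand) encodes extracellular matrix protein 1, a secreted glycoprotein that binds other matrix proteins and is known as a regulator of TGF-beta activation. Its counts were 1231, 1191, 2121 and 1705 in the controls and 2443, 2787, 3439.8 and 4465 in the libraries labelled knockout. The groups were separate, with coefficients of variation of 28.2% and 27.1%. The means of 1562 ± 439.7 and 3284 ± 889 had a ratio of 2.102 (log2 difference 1.08, SE 0.22). That log2 difference became 1.24 without control replicate 3 and 0.91 without knockout replicate 4.

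The counts are per gene and do not separate splice forms, of which GENCODE M21 lists 17 transcripts for Fn1, 9 for Vcan, 9 for Postn and 4 for Tnc. Whether reads were counted by strand is not given in the sources used here, and some members share exon bases with another gene. Fn1 shares 292 bases with the antisense gene Apol7d, which has no row in the table. Tnc shares 176 bases with 8030451A03Rik on the opposite strand, whose means of 6.10 and 16.0 normalised reads are small beside those of Tnc. Tnxb shares 3 bases with the pseudogene Cyp21a2-ps, and Ecm1 contains the microRNA gene Mir7014 on its own strand. For the other 6 members no shared exon bases were annotated.

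Levels of different genes were compared per kilobase of annotated exon. Sparc and Fn1 were the most abundant members on this scale in both groups, at 4299 ± 2087 and 3591 ± 2185 normalised reads per kilobase in the controls and 10242 ± 1385 and 6162 ± 3033 in the libraries labelled knockout, with overlapping ranges. Next came Sparcl1 at 1088 ± 89.8 in the controls and Ecm1 at 619.6 ± 174. Vcan was last in both groups, at 17.96 ± 11.03 and 42.2 ± 21.6. Postn changed its place most. By rank it was 8 of 10 in the controls, at 97.9 ± 70.1 normalised reads per kilobase, within the range of Tnxb and Tnn, and 5 of 10 in the libraries labelled knockout, at 875 ± 63.8. There it was below every library of Ecm1 and overlapped Tgfbi at 613 ± 224. In the controls all neighbours in the order from Ecm1 downwards had overlapping ranges. With the longest transcript as the length, its ranks were 7 and 4, and in the libraries labelled knockout it had 1335 to 1557 normalised reads per kilobase and overlapped Ecm1 at 1286 to 2350.2.

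**Figure D3:**
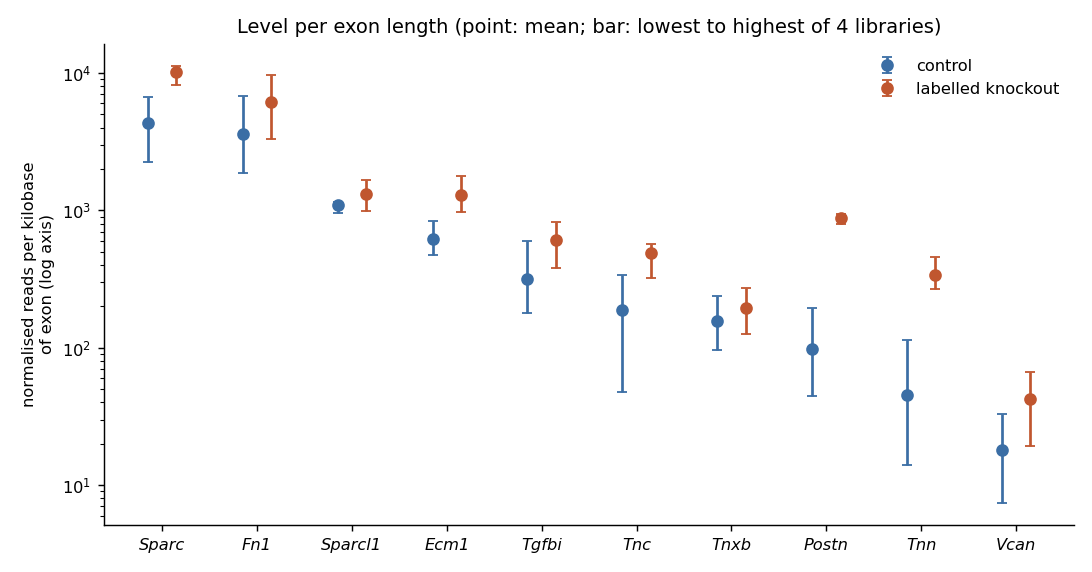
Normalised reads per kilobase of exon (log axis) for the 10 genes, ordered by their control means; points are means and bars run from the lowest to the highest of 4 libraries. The mean of Postn goes from 97.9 to 875 and that of Tnn from 45.4 to 340, while the means of Tnxb are 156 and 194.

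Together the 10 genes took 0.330, 0.312, 0.731 and 0.294% of the summed values of control replicates 1 to 4 and 0.729, 1.17, 0.660 and 1.40% of those of the libraries labelled knockout. Control replicate 3 fell among the libraries labelled knockout. Fn1 and Sparc made up 83.4 ± 4.34% of that share in the controls and 80.2 ± 3.88% in the other group, so the summed share says little about the 8 less abundant members.

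Apart from the difference between the groups, the members differed in how they varied within them. Each library's deviation from its own group mean was correlated over the 8 libraries, as a description with no test, since the libraries share size factors and tissue make-up. Tnc and Sparc went together (Pearson r = 0.97), as did Postn with Sparc (0.93) and with Tnc (0.86). Fn1, Tgfbi and Vcan formed a second set, with r = 0.96 for Fn1 and Tgfbi, 0.91 for Tgfbi and Vcan and 0.88 for Fn1 and Vcan. Between the sets the 9 pairs ran from 0.07 for Tnc and Vcan to 0.50 for Postn and Tgfbi. The sets were not apart in the 4 libraries labelled knockout alone, where r was 0.84 for Tnc and Vcan and 0.90 for Sparc and Vcan. The first set was high in control replicates 1 and 3, the second in control replicate 3 and knockout replicates 2 and 4. The correlations of Postn rest on the controls, since r for Postn and Sparc was 0.97 over the 4 controls and 0.22 over the 4 libraries labelled knockout, where Postn hardly varied. Tnxb went with neither set and had r = -0.54 with Tnn. Of the 45 pairs, 6 had r of at least 0.8 and 5 were below 0.

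**Figure D4:**
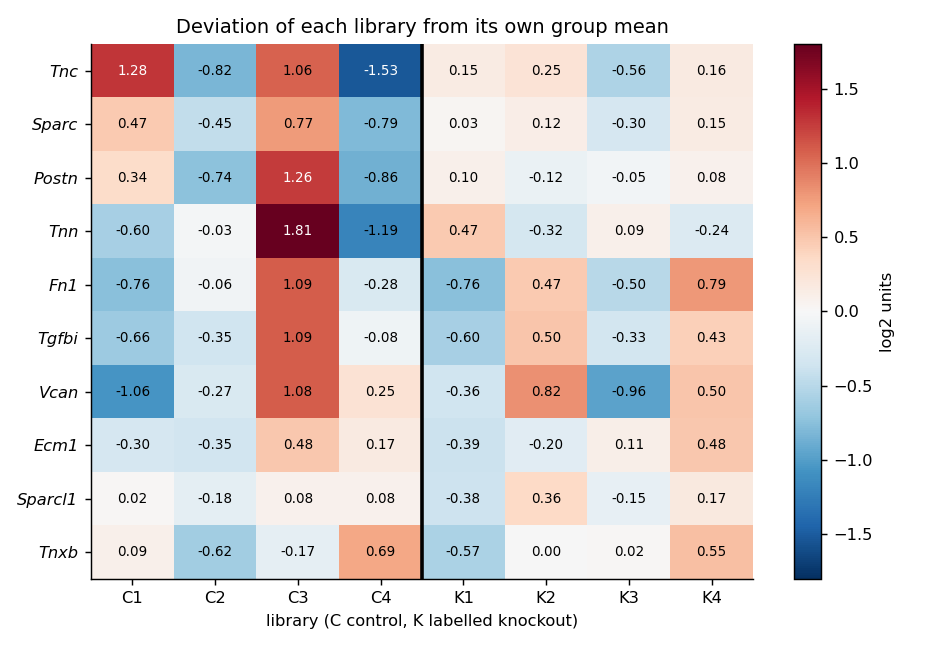
Log2 deviation of each library from the mean of its own group, by gene (rows) and library (columns; C control, K labelled knockout). Tnc, Sparc and Postn are high in C1 and C3, and Fn1, Tgfbi and Vcan in C3, K2 and K4.

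The marker lists that moved with these sets within the groups were alike in part. With the fibroblast and tendon lists r was 0.64 to 0.87 in the first set and 0.68 to 0.79 in the second. The sets differed with the osteoblast list (0.60 to 0.76 and -0.31 to -0.19) and the synovial lining list (-0.08 to 0.18 and 0.74 to 0.84). They differed too with the chondrocyte (-0.17 to 0.18 and -0.84 to -0.60) and osteoclast lists (0.30 to 0.55 and -0.60 to -0.51). With the neutrophil list the values were -0.02 to 0.24 and -0.72 to -0.54. The deviations of Tnc had r = 0.76 with the fibroblast list, 0.76 with the osteoblast list and -0.08 with the synovial lining list. Those of Vcan had r = 0.84 with the synovial lining list, 0.68 with fibroblasts and -0.31 with osteoblasts. Fn1 had 0.74, 0.73 and -0.30 in the same order. With chondrocytes Vcan had -0.84 and Fn1 -0.60. Sparcl1 had its highest value with the mural cell list (0.72) and had -0.66 with skeletal muscle. Tnxb had 0.66 with both the mural and the macrophage lists and -0.78 with skeletal muscle. Among 11645 other genes with a mean of at least 50, those most like Sparc within the groups were Nedd9 (0.99) and Sh3pxd2b (0.99), those most like Fn1 Ssc5d (0.99) and Selenon (0.98), and those most like Tnc Pde1b and Nedd9 (both 0.98). The highest value of a member ran from 0.96 for Ecm1 (Ddx31) to 0.99 for Vcan (Rp2), so such values set no member apart. They are the highest of 11645 correlations over 8 libraries and were not tested.

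Fibroblast markers moved between the groups in the same direction as the members. Beside the counts called in the marker lists, 11.6% of all genes tested were called higher and 11.6% lower. Of the 10 fibroblast markers, Pdgfra, Pdgfrb, Thy1, Fap, Dcn, Lum, Dpt, Col1a1, Col1a2 and Col3a1, 8 were called higher and 0 lower, with a median log2 difference of 1.45, and no marker was at 0 in any library. Their summed values were 39197 to 119919 in the controls and 162685 to 265722 in the libraries labelled knockout. The mean log2 level of the list did not overlap between the groups (difference 1.48, exact permutation p = 0.0286, the smallest possible, or 0.133 adjusted over 14 marker lists). Skeletal muscle markers were lower (12 of 12 lower, 7 called, median -0.74, exact permutation p = 0.0286, adjusted 0.133). Macrophage markers were higher (6 of 6 called, median 1.47), with summed values of 1064 to 2460.2 in the controls and 3809 to 5404 in the libraries labelled knockout. Endothelial and mural markers, with summed values of 3816 to 5217 and 6559 to 8969 in the controls and 3035 to 6181 and 6741 to 10303 in the libraries labelled knockout, had medians of -0.08 and 0.11. Of the 6 endothelial markers 0 were called, and of the 6 mural markers 1 was called higher and 0 lower. Osteoclast markers (6 of 6 called higher, median 2.87), osteoblast markers (4 of 6, median 1.69) and tendon markers (3 of 4, median 1.34) were higher too. Their summed values were 1837 to 13753, 1068 to 6844 and 1871 to 4504 in the controls and 10078 to 38508, 5670 to 12328 and 6266 to 8792 in the libraries labelled knockout, and no marker of these 3 lists was at 0. The 7 erythroid markers had negative differences (median -1.95), with 0 called, and so had the 7 neutrophil markers (median -0.64, 0 called). Of the 8 chondrocyte markers 0 were called (median 0.59). Of the 4 synovial lining markers 1 was called higher and 2 had differences above 0 (median 0.41). Fat cell (median -0.24) and Schwann cell (median -0.25) markers had 0 called. The score differences of the osteoclast (2.95), osteoblast (1.67), tendon (1.33) and erythroid (-1.96) lists had exact permutation p-values of 0.0571, 0.114, 0.0571 and 0.114. In whole joints, more cells of a type and more RNA per cell cannot be told apart, and the part of these markers in the members' differences was not tested.

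Set against the fibroblast markers of the same library, the members differed in direction, and those directions depend on the list used. The log2 level of Postn minus the mean of the list was -1.27, -1.98, -1.21 and -1.97 in the controls and 0.41, -0.02, 0.88 and 0.07 in the libraries labelled knockout, a difference of 1.94 with no overlap. Tnn likewise went from a mean of -3.51 ± 0.79 to -1.64 ± 0.66 with no overlap. Sparc (-0.10), Vcan (-0.21), Tnc (0.30), Ecm1 (-0.41), Tgfbi (-0.44) and Fn1 (-0.67) differed by less on this scale and their groups overlapped. Sparcl1 was lower relative to the list, by a difference of -1.23, and Tnxb by -1.14. The groups of Tnxb overlapped, and those of Sparcl1 all but touched, at -0.22 in control replicate 3 and -0.23 in knockout replicate 3. With mural or endothelial markers in place of fibroblast markers, the differences of 7 genes turned from below to above 0, among them Sparcl1 (0.19 and 0.35) and Fn1 (0.74 and 0.91). These differences come from the same comparison that chose the members and are a description.

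**Figure D5:**
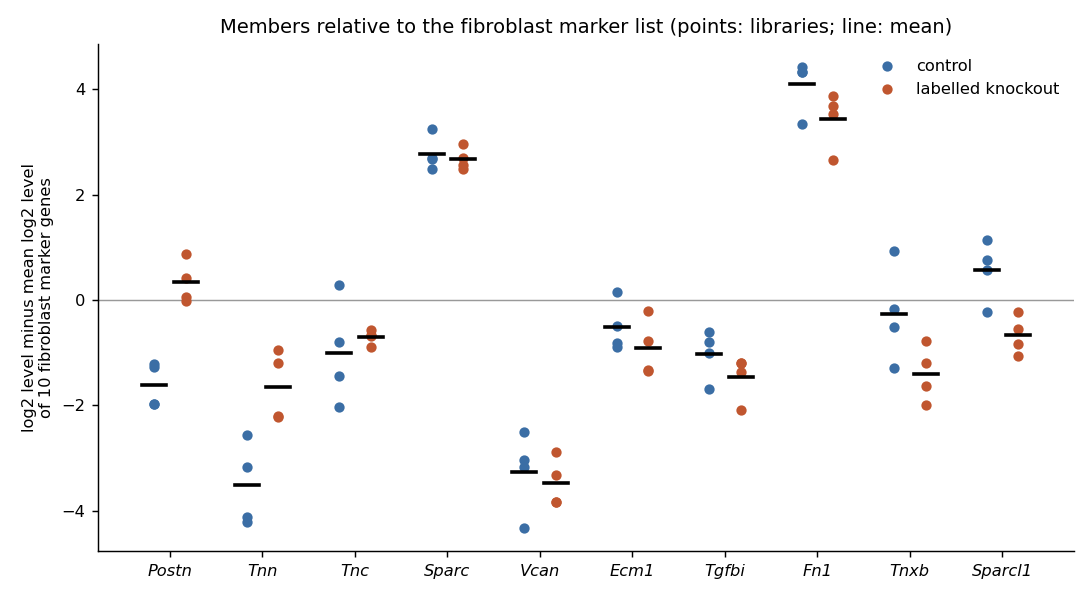
Log2 level of each gene minus the mean log2 level of 10 fibroblast markers in the same library; points are libraries and lines are group means. Postn and Tnn are higher in all 4 libraries labelled knockout than in any control. Sparcl1 is lower, with groups that all but touch, and the other 7 genes overlap.

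Genes that work with the members were taken from 5 lists written down by function. Of their 73 genes, 68 were abundant enough to test, and 40 of these were called, all 40 higher in the libraries labelled knockout, beside 23.2% called in either direction and 11.6% called higher over all genes. The lists were written with earlier results of these data known, so the counts are not independent support. With the muscle score as a covariate limma called 0 of them, as it did of all genes. Without knockout replicate 4 the count was 19, without control replicate 2 it was 21 and without control replicate 4 it was 26.

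Among 15 receptors for these proteins, 8 rose, 0 fell and 7 were not called, with a median log2 difference of 0.42. Itgb8, an integrin subunit that activates latent TGF-beta, rose from 16.9 ± 6.27 to 52.5 ± 15.8 (log2 1.59, SE 0.31, limma adjusted p = 0.00911). Itgav, the partner of the beta subunits that bind periostin, rose by 0.68 (SE 0.16, limma adjusted p = 0.0151), and Itga5, the fibronectin receptor subunit, by 0.72 (SE 0.18, limma adjusted p = 0.0200). Sdc4, a heparan sulfate co-receptor for fibronectin, rose by 0.40 (SE 0.10, limma adjusted p = 0.0201). Itgb1, the shared beta subunit of many matrix receptors, had 4442 ± 502 and 5442 ± 842 (log2 0.29, limma adjusted p = 0.132), and the epithelial subunit Itgb6 had 501 ± 51.3 and 371 ± 97.2 (log2 -0.46, limma adjusted p = 0.0684).

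Of 24 related matricellular genes, including the CCN family and the other SPARC relatives, 20 were tested, 9 rose, 0 fell and 11 were not called (median 0.91). Fbln1, a fibulin that binds fibronectin, rose from 130.2 ± 44.9 to 401 ± 44.7 (log2 1.67, SE 0.22, limma adjusted p = 0.00397). Edil3, an integrin ligand, rose by 2.29 (SE 0.43, limma adjusted p = 0.00808), Smoc2, a SPARC relative, by 1.29 (SE 0.25, limma adjusted p = 0.00875) and Ccn4, listed as Wisp1, by 1.78 (SE 0.37, limma adjusted p = 0.0107). Ccn2 (listed as Ctgf), a widely used TGF-beta and YAP target, had 2373 ± 582 and 3620.0 ± 1449 (log2 0.56, limma adjusted p = 0.142), and Fstl1 had 1840.5 ± 1004 and 3982 ± 2032 (log2 1.10, limma adjusted p = 0.0872). The remaining tenascin, Tnr, a gene of nervous tissue, was low at 15.4 ± 14.2 and 29.2 ± 20.4 and not called.

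Of 13 scaffold partners, which bind or crosslink the same fibres, 10 rose, 0 fell and 3 were not called (median 1.28). Lox, the lysyl oxidase that periostin helps to activate, rose by 2.03 (SE 0.35, limma adjusted p = 0.00631), Col5a1 by 1.96 (SE 0.35, limma adjusted p = 0.00724), Col3a1 by 2.40 (SE 0.57, limma adjusted p = 0.0167), and the hyaluronan link protein gene Hapln1 by 1.28 (SE 0.30, limma adjusted p = 0.0165). Tgm2, a transglutaminase that crosslinks fibronectin, had 1193 ± 255 and 1167 ± 62.8 (log2 -0.01, limma adjusted p = 0.975), and Fbn1 730.5 ± 333 and 1762 ± 1112 (log2 1.12, limma adjusted p = 0.106). The collagens Col1a1, Col1a2 and Col3a1 also stand on the fibroblast marker list.

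Known inducers of the members were called in 8 of 10 tested cases, all higher, with a median of 0.70. Il4ra, a receptor subunit for interleukins that induce periostin, rose from 191 ± 56.5 to 425 ± 53.8 (log2 1.19, SE 0.20, limma adjusted p = 0.00605). The mesenchymal transcription factors Prrx1 (0.50, SE 0.11, limma adjusted p = 0.0119) and Twist1 (1.49, SE 0.33, limma adjusted p = 0.0141) and the ligand Tgfb3 (0.37, SE 0.08, limma adjusted p = 0.0148) rose too. Tgfb2 had 666 ± 24.0 and 659.8 ± 65.5 (log2 -0.02, limma adjusted p = 0.907), and the tendon factor Scx 214 ± 63.5 and 358 ± 119.9 (log2 0.74, limma adjusted p = 0.0905).

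Of 10 proteases known to cleave versican, fibronectin or tenascins, 5 rose, 0 fell and 5 were not called (median 1.501). The versican-cleaving enzyme genes were not alike. Adamts15 rose from 75.8 ± 9.51 to 204 ± 28.7 (log2 1.41, SE 0.16, limma adjusted p = 0.00397) and Adamts4 from 25.4 ± 16.2 to 116 ± 31.7 (log2 2.33, SE 0.44, limma adjusted p = 0.00828). Adamts1 had 643 ± 17.2 and 570.1 ± 206 (log2 -0.23, limma adjusted p = 0.410), and Adamts5 389.8 ± 147 and 559 ± 78.2 (log2 0.58, limma adjusted p = 0.0922). Mmp14, a membrane-bound metalloproteinase, rose by 2.28 (SE 0.36, limma adjusted p = 0.00511) and Mmp2, which it activates, by 1.59 (SE 0.42, limma adjusted p = 0.0245).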

How the data were processed

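The deposited table holds 1 signal value per gene and library. Per the series text, the authors aligned reads to mm10, counted them with featureCounts and normalised and filtered with DESeq2, and the submitters' processing notes also list HISAT2. Versions, annotation and filters are not given in the sources used here. In every column 100% of the deposited values were whole multiples (within 0.05) of a step equal to the inverse of the recomputed size factor, although in 2 columns that step was near 1. The recovered reads were used in the count tests. Counts of the 12 pairs of libraries within groups differed by a chi-square of 25.8 to 66.1 per degree of freedom, more than counting noise.

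Samples were grouped by title. Genes that reached 10 in 4 or more libraries were fitted with limma 3.58.1 (log2 of value + 1, trend, 1 group term), and p-values were adjusted over all 14949. Marker lists were compared by exact two-sided permutation over 70 assignments. Alternatives included edgeR 4.0.16 and DESeq2 1.42.0 on recovered reads, and the fits were tested on simulated data. Genes named from each list were the 4 called genes of smallest p and the 2 most abundant not called, while Tnr, as the remaining tenascin, and the fibroblast markers were named besides. For likeness to a member, the 2 highest correlations were eligible. Coordinates, exon lengths and overlaps are from GENCODE M21, on the same build as mm10. The members and lists were chosen with earlier results of these data known.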

Additional observations from a re-analysis of the deposited data

Results flagged for a closer look

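In 2 of the 22 groups of 4 libraries formed by the 10 genes and Loxl2, a library stood far from the other 3 by Dixon's criterion, which chance alone meets in about 1 of 20 groups. Tnc in knockout replicate 3 was 2507 normalised reads, with the gap to the next library taking 0.852 of the range of its group. The fibroblast markers of that library were also the lowest of the 4 libraries labelled knockout, with a mean log2 level of 11.96. Loxl2 in control replicate 3 was 1135 normalised reads, with a gap of 0.921 of the range. In the same library Postn, Tnn, Sparc, Fn1, Tgfbi, Vcan and Ecm1 each had their highest control value, and the mean log2 level of the fibroblast markers was 11.94, against 10.58 to 11.08 in the other controls. The part of tissue make-up in these values was not tested.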

How the results depend on the processing

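The 18 alternatives were 2 pseudocounts, 2 filters, 2 scalings, the replicate block, the muscle covariate, edgeR, DESeq2 and leaving out each library. With the muscle score as a covariate 0 genes, 0 members and 0 genes of the 5 lists were called, 637 genes and 3 members had an unadjusted p under 0.05, and the median difference of the members was 0.017; Fn1 (-0.76), Sparcl1 (-0.41), Tgfbi (-0.087), Tnxb (-1.25) and Vcan (-0.054) turned below 0. In the fits without that covariate all 10 members stayed above 0 and 4 to 7 were called, always including Postn, Tnn, Sparc and Ecm1. Leaving out each library gave 1740 to 3832 genes, 4 to 7 members and 19 to 44 genes of the lists, and a median of the members between 0.95 and 1.52. The replicate numbers did not pair the libraries (correlations of same-numbered deviations 0.21, -0.12, -0.23 and -0.06, and 2 of 8 libraries correlated best with their own number). With the replicate block 2018 genes, 4 members and 28 genes of the lists were called, Tnc being the member lost; the cause was not tested. Relative to mural or endothelial in place of fibroblast markers, the differences of all 10 genes were above 0, and for 7 this turned the sign, at 1.01 and 1.17 for Ecm1, 0.74 and 0.91 for Fn1, 1.31 and 1.48 for Sparc, 0.19 and 0.35 for Sparcl1, 0.98 and 1.14 for Tgfbi, 0.28 and 0.44 for Tnxb and 1.21 and 1.37 for Vcan, while those of Postn (3.36 and 3.52), Tnn (3.28 and 3.45) and Tnc (1.71 and 1.88) kept it. Counting error reached 11.5% for Tnn and 10.1% for Vcan and was smaller for the other members.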
